A study of Mus musculus with 6 samples.

Results

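Il4, Il13, Il5, Rad50 and Kif3a are neighbours on mouse chromosome 11, in the stretch known as the type 2 cytokine locus. They were taken by gene symbol and are 5 of the 22548 genes, and 6 of the 28702 transcripts, in the deposited expression tables. Il4 has 2 transcripts there, and the other 4 genes have 1 each. In build mm9, Kif3a lies at 53380881 to 53417746, Il4 at 53425963 to 53432167, Il13 at 53444825 to 53448204, Rad50 at 53463021 to 53520821 and Il5 at 53534296 to 53538605, a span of 158 kb.

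IL-4 and IL-13 act through receptors that share the IL-4 receptor alpha chain and signal to STAT6, and both drive IgE production, mucus secretion and alternative activation of macrophages. IL-5 is the growth and survival factor of eosinophils. In T helper cells, the 3 cytokine genes are controlled together by a locus control region that lies within Rad50, while Rad50 itself encodes a DNA repair protein and Kif3a a kinesin motor subunit. Reporter mice have shown that eosinophils, basophils and mast cells can carry Il4 mRNA before they are stimulated.

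Eosinophils were grown from the low-density marrow cells of BALB/c mice, wild-type and aged 4 to 8 weeks. Until day 4 every culture held FLT3 ligand and stem cell factor, at 100 ng/ml, and then IL-5 at 10 ng/ml until day 14, so the IL-5 protein was present in every group, controls included. On day 14 the groups were IL-33 at 10 ng/ml for 1 h and 4 h, IL-4 at 10 ng/ml for 1 h and 4 h, and untreated control cells of 1 h and 4 h. IL-33, a relative of IL-1, is sensed through the ST2 receptor and activates NF-kB. Each of the 6 groups had 1 library, so there is no replicate spread to judge a difference by, and groups were not tested; the labels do not say how many mice gave the cells of a library. The series title names IL-4 made by the eosinophils themselves as one route of the IL-33 response, which makes the level of Il4 in these cells the question at hand.

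Expression was given as FPKM, the number of fragments scaled to transcript length and to library size, so levels can be compared between genes. Each treated library was deposited in a table with the control library of its time, and every change below is set against the control column of the same table. A log2 change is that of FPKM + 1, which understates the change of low genes. A gene or transcript is called higher or lower where its log2 change was at least 1 in size and its FPKM was at least 1 in either library; "rose" and "fell" are used only of those. The size of the smallest steps between values gave an estimate of what 1 read was worth, so that the reads behind a level could be estimated; the library of IL-33 at 4 h was the deepest and the control of 4 h the shallowest. The eosinophil markers Prg2, Epx, Ccr3 and Siglec5 were all abundant, and none of the 11 eosinophil markers was called in any comparison. Over all genes, 0.47% to 4.15% were higher and 0.351% to 1.38% lower, depending on the comparison. With IL-33 at 4 h, Il5ra (log2 change -0.89), Alox15 (-0.76) and Epx (-0.53) lay below their control and Gata1 (0.72) above it. The list median there was -0.14, beside -0.03 over all genes. In these bulk samples, fewer cells of a type and less RNA per cell cannot be told apart.

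With IL-33, Il13 rose at both times and the coding transcript of Il4 rose with it, while a second and far more abundant Il4 transcript moved little. Il5 was not detected above the level of about 1 read in any library. Rad50, which lies between Il13 and Il5, and Kif3a, which lies beside Il4, had log2 changes between -0.18 and 0.15 in the 4 comparisons with a control. With IL-4, none of the 5 genes was called at either time.

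Il13 encodes the cytokine of airway mucus and worm expulsion. Its level was 17.3 FPKM with IL-33 for 1 h, against 2.01 FPKM in the control of that table. At 4 h it stood at 46.8 FPKM with IL-33, against 0.971 FPKM in the control. These are rises of 8.58-fold at 1 h (log2 change 2.60) and 48.2-fold at 4 h (log2 change 4.60). With IL-4, Il13 stood at 2.48 FPKM against 2.13 FPKM in the control at 1 h, then at 1.29 FPKM against 1.02 FPKM at 4 h, log2 changes of 0.15 and 0.18. Both IL-33 libraries were thus high and the 4 others low.

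The values of Il13 rested on about 433 reads with IL-33 at 1 h, against about 43.6 reads in the control, and on about 1409 reads against about 15.5 reads at 4 h. With IL-4 at 4 h, Il13 had about 24.2 reads, against about 15.5 in the control. Low control counts set the precision of the fold at 4 h. Among the genes compared, 2.36% were higher and 0.669% lower with IL-33 at 1 h, and 4.15% higher and 1.38% lower at 4 h. Il13 had the 68th largest log2 change of 10616 genes at 1 h and the 38th largest of 10803 at 4 h. With IL-4, 0.47% of genes were higher and 0.358% lower at 1 h, and 0.646% higher and 0.351% lower at 4 h.

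**Figure D1:**
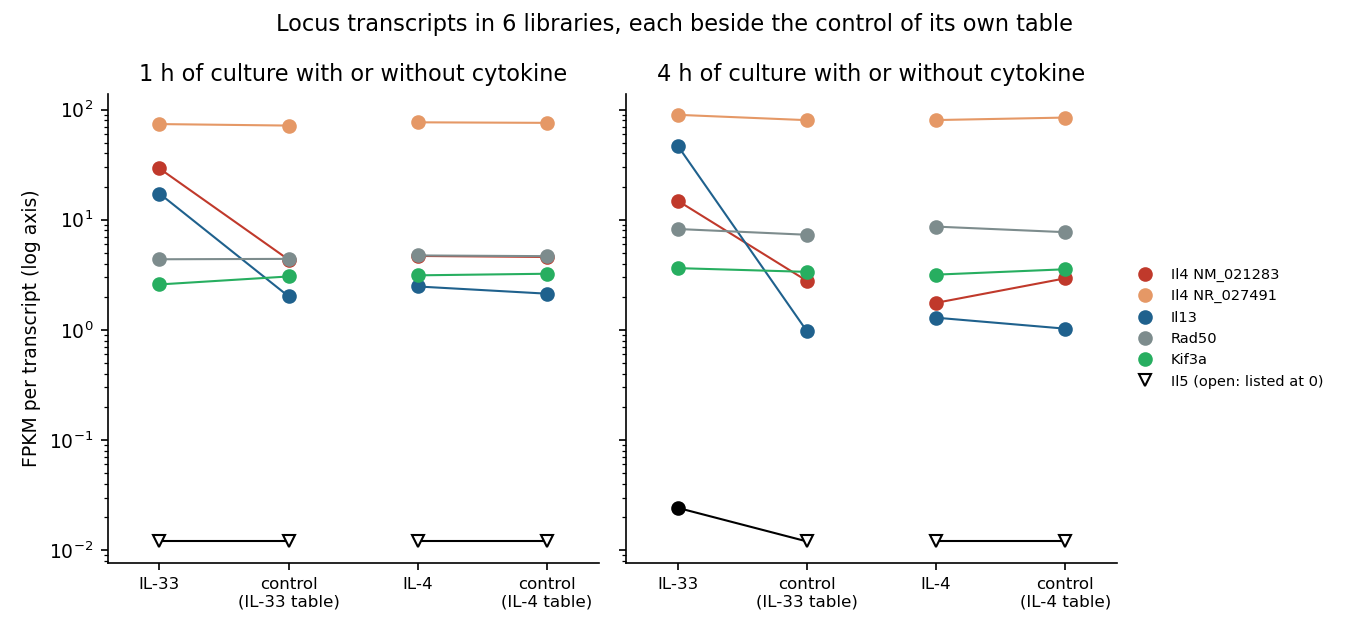
Level of each of the 6 transcripts (FPKM, log axis) at 1 h (left) and 4 h (right). Each point is 1 library in 1 table, so a control library appears once for each cytokine. Lines join a treated library to the control column of its own table. Il13 and Il4 NM_021283 stand above their controls with IL-33, at 46.8 against 0.971 FPKM and 14.8 against 2.78 FPKM at 4 h; open triangles are Il5 values listed at 0.

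Il4 encodes the cytokine that turns T helper cells to the type 2 fate. Its 2 transcripts start at different places. NM_021283 codes for the whole protein, with 590 bases in 4 exons by GENCODE M21, of which 420 code before the stop. NR_027491, which RefSeq classes as non-coding, has 605 bases in 3 exons and starts 1331 bases further along, inside intron 2 of NM_021283. On build GRCm38, minus strand, its first exon lies at 53617081 to 53617338 of chromosome 11, between exon 2 (53618170 to 53618217) and exon 3 (53613904 to 53614056) of NM_021283. The transcripts share their last 2 exons, 347 bases, so 243 bases of NM_021283 and 258 bases of NR_027491 are their own. GENCODE annotates in NR_027491 an open reading frame of 135 bases, in the frame of NM_021283 and ending at the same stop.

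The junctions into the first shared exon tell the 2 transcripts apart. They are shown because the result for Il4 turns on which transcript a read belongs to. Lower case marks the transcript's own exon and capitals the shared exon, 25 bases each, from GENCODE M21 on GRCm38.
NM_021283, exon 2 to exon 3: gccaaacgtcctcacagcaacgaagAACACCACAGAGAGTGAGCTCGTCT
NR_027491, exon 1 to exon 2: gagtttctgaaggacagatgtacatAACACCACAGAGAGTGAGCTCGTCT

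NM_021283 stood at 29.2 FPKM with IL-33 for 1 h, against 4.33 FPKM in the control. At 4 h it stood at 14.8 FPKM with IL-33, against 2.78 FPKM in the control. The rises were 6.73-fold at 1 h (log2 change 2.50) and 5.34-fold at 4 h (log2 change 2.07). NR_027491 stood at 73.8 FPKM with IL-33 against 71.5 FPKM in the control at 1 h, and at 89.5 against 80.1 FPKM at 4 h, log2 changes of 0.04 and 0.16. The coding transcript was thus high in both IL-33 libraries and the internal transcript lay between 71.5 and 89.5 FPKM in these 4 values.

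With IL-4 at 1 h, NM_021283 stood at 4.69 FPKM, against 4.59 FPKM in the control. With IL-4 at 4 h it stood at 1.76 FPKM, against 2.93 FPKM in the control, a log2 change of -0.51 that is not past the rule. These last values correspond to about 11.8 reads with IL-4 and 15.8 in the control, by a length correction that is less certain for transcripts this short. NR_027491 stood at 76.5 FPKM against 75.7 FPKM at 1 h, and at 80.2 FPKM against 84.5 FPKM at 4 h.

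Since NR_027491 dominated, the sum over both transcripts hid the rise. The Il4 sum was 103 FPKM with IL-33 against 75.8 FPKM in the control at 1 h, and 104 against 82.8 FPKM at 4 h, log2 changes of 0.44 and 0.33. NM_021283 made up 28.3% of Il4 FPKM with IL-33 at 1 h, against 5.72% in the control, and 14.2% with IL-33 at 4 h, against 3.36% in the control. With IL-4 its share was 5.77% against 5.72% at 1 h, and 2.14% against 3.36% at 4 h. As a sum, Il4 was already abundant in untreated cells, above 88.4% of the genes at FPKM of at least 1 in the control of 1 h and above 89.4% in that of 4 h. Most of that sum was NR_027491, and NM_021283 alone stood at 4.33 and 2.78 FPKM in these controls.

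**Figure D2:**
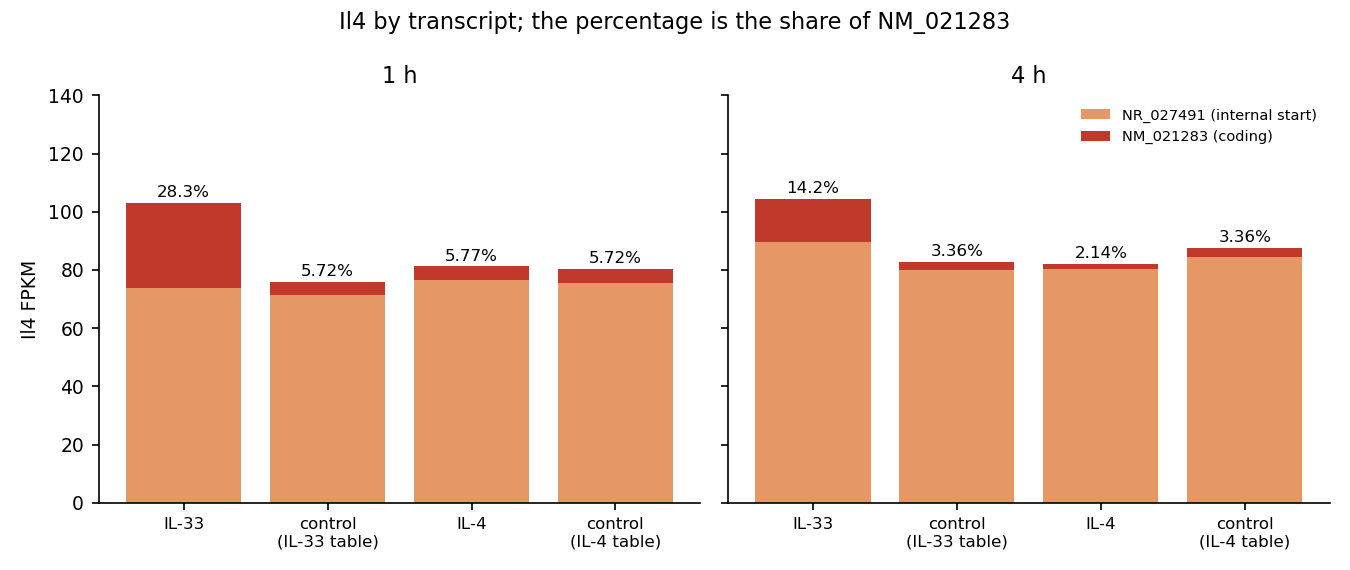
Il4 FPKM stacked by transcript, with the control of each table beside its treated library. Each control library is drawn once for each cytokine, on the scale of that table. The percentage is the share of NM_021283, which was 28.3% with IL-33 at 1 h against 5.72% in the control, while the lower part of the bars, NR_027491, stayed between 71.5 and 89.5 FPKM.

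Of all transcripts, IL-33 had 3.52% higher at 1 h and 5.86% at 4 h, while IL-4 had 1.81% higher at 1 h and 2.56% higher at 4 h. NM_021283 had the 84th largest log2 change of 12680 transcripts at 1 h and the 208th largest of 12960 at 4 h. A rise of 1 transcript that its gene's sum does not show was common in these tables. At 1 h, 7.71% of 2270 genes of several transcripts had one with IL-33 and 7.67% of 2282 with IL-4; at 4 h the shares were 11% and 10.8%. The same transcript rose at both times, with the sum below the rule, in 23 of 2234 genes (1.03%) with IL-33, Il4 among them, and in 23 of 2251 genes (1.02%) with IL-4. The split of reads between overlapping transcripts is an estimate by the authors' software, and its part in the Il4 result was not tested.

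The authors' deposited tables mark NM_021283 and Il13 as significant with IL-33 at both times, and none of the other locus transcripts in any comparison. That mark tests reads within a pair of libraries and says nothing of the spread of a condition. The authors' deposited list of 1593 regulated genes holds Il13, with log2 fold changes of 3.10 at 1 h and 5.59 at 4 h without a pseudocount, and does not hold Il4.

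The values of the 2 cytokine transcripts at 4 h against 1 h of IL-33 differed in direction. On the scale of the IL-4 tables, with the untreated library of each time as the link, Il13 stood at 18.3 FPKM with IL-33 at 1 h and 49.4 FPKM at 4 h. NM_021283 stood at 30.9 FPKM with IL-33 at 1 h and 15.7 FPKM at 4 h. The order of the 6 libraries for Il13 was IL-33 4 h, IL-33 1 h, IL-4 1 h (2.48 FPKM), control 1 h (2.13), IL-4 4 h (1.29) and control 4 h (1.02). For NM_021283 it was IL-33 1 h, IL-33 4 h, IL-4 1 h (4.69), control 1 h (4.59), control 4 h (2.93) and IL-4 4 h (1.76). No spread is at hand to separate neighbours in these orders, and the tables of 1 h and 4 h were normalised apart.

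The responses to IL-33 and IL-4 were compared as a difference of log2 changes, whose control library is shared. For Il13 the difference was 2.45 at 1 h and 4.42 at 4 h, and for NM_021283 it was 2.47 and 2.58. For the Il4 sum it was 0.42 at both times. Over all genes, 2.34% differed by at least 1 in this direction at 1 h and 3.66% at 4 h.

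The upstream sequence is shown for Il13 and NM_021283, the 2 transcripts that rose with IL-33, and for NR_027491, which did not. Each sequence is the 250 bases before the RefSeq start on GRCm38.p6, minus strand of chromosome 11. Levels are per transcript, and use of the starts was not tested. RefSeq starts were matched for 4 of the 5 genes. The reference is C57BL/6J, while the cells were BALB/c. Capitals mark matches on either strand to GGAAA (the NFAT core), to AGATAA and its variants with T first or G last (GATA), to TTC and GAA with 4 bases between them (STAT6) or with 3 (STAT5), to TGANTCA (AP-1) or to the NF-kB consensus.
Il13, chr11:53634703-53634952: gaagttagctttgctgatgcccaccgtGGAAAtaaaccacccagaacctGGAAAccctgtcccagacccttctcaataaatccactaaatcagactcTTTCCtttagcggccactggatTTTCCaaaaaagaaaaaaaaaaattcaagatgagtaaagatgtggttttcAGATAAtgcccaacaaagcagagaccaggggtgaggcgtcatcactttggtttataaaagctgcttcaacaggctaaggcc
Il4 NM_021283, chr11:53618666-53618915: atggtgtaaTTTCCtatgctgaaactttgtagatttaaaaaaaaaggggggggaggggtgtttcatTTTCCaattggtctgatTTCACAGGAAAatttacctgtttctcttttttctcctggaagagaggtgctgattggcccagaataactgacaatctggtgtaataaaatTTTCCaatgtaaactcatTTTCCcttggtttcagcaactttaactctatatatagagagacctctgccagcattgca
Il4 NR_027491, chr11:53617339-53617588: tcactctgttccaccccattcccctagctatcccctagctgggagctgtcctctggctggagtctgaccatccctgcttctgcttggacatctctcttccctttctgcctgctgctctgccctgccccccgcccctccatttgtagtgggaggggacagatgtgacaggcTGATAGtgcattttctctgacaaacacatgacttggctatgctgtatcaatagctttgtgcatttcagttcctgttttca

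The window of Il13 held 4 NFAT cores and 1 GATA match, at 81 to 76 bases before the start. That of NM_021283 held 5 NFAT cores and 1 STAT6 match, which overlaps 1 of the NFAT cores at 161 to 157 bases before the start. The window of NR_027491 held 1 GATA match and no NFAT core. Of 32817 starts, 55.6% had at least 1 NFAT core in a window of this length, 1.58% had at least 4 and 0.390% at least 5. A GATA match was found in 26.6% of windows, STAT6 in 5.85%, STAT5 in 7.01%, AP-1 in 6.75% and the NF-kB consensus in 3.90%. None of the 3 windows held a match to the last 3. The window of Il5 had 2 NFAT cores and 1 GATA match, and that of Kif3a had 1 NFAT core and no GATA match. These matches describe letters and do not show binding.

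Il5 was listed at 0 in 5 of the 6 libraries. With IL-33 at 4 h it had 0.0242 FPKM, an estimated 0.983 reads, against a value listed at 0 in the control. One read on Il5 was worth 0.0246 FPKM in the library of IL-33 at 4 h and 0.0465 FPKM in the control of that table. Il5 was therefore not detectable above about 1 read at this depth, under IL-33 as under IL-4, and passed no filter on low values. Its receptor chain Il5ra was expressed, at 12.9 FPKM with IL-33 at 4 h against 24.7 FPKM in the control, a log2 change of -0.89 that is not past the rule.

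Rad50 lies between Il13 and Il5 and encodes the ATPase of the MRE11-RAD50-NBS1 complex, which binds broken DNA ends. It stood at 4.37 FPKM with IL-33 against 4.41 FPKM in the control at 1 h, and at 8.23 against 7.29 FPKM at 4 h. With IL-4 it stood at 4.74 against 4.66 FPKM at 1 h and at 8.65 against 7.70 FPKM at 4 h. The libraries of 4 h were thus all higher than those of 1 h, with or without a cytokine. In untreated cells, Rad50 stood at 7.70 FPKM at 4 h against 4.66 FPKM at 1 h, a ratio of 1.65 (log2 change 0.62), which is the 527th largest of 10813 genes and not past the rule. That comparison crosses tables. Over all genes, 0.879% were higher and 1.56% lower in the control of 4 h, and Il13 stood at 1.02 FPKM at 4 h against 2.13 FPKM at 1 h (log2 change -0.63).

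Of 16 genes of double-strand break repair, Rad50 included, 13 passed the filter at 1 h and 14 at 4 h. Only Nbn, the NBS1 subunit that partners Rad50, was called, with IL-33 at 1 h, where 2.36% of all genes were higher. It stood at 14.7 FPKM against 6.58 FPKM in the control (log2 change 1.05). At 4 h Nbn stood at 15.9 against 9.28 FPKM (log2 change 0.72), which is not past the rule. Mre11a, the nuclease subunit, stood at 4.23 against 4.43 FPKM with IL-33 at 1 h. The median log2 change of the list was 0.07 there, beside -0.01 over all genes, and -0.13 with IL-33 at 4 h, beside -0.03.

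Kif3a lies on the other side of Il4, 8.22 kb away, and encodes a motor subunit of kinesin-2, which carries cargo along microtubules and into cilia. It stood at 2.58 FPKM with IL-33 against 3.05 FPKM in the control at 1 h, and at 3.63 against 3.36 FPKM at 4 h. With IL-4 it stood at 3.12 against 3.23 FPKM at 1 h and at 3.17 against 3.55 FPKM at 4 h. All its values thus lay between 2.58 and 3.63 FPKM. None of the 18 genes of kinesin-2 and intraflagellar transport was called in any of the 4 comparisons, in which 11 to 13 passed the filter. Over all genes, 0.47% to 4.15% were higher and 0.351% to 1.38% lower in these comparisons. Kif3b, the usual partner of Kif3a, was more abundant, at 16.9 FPKM with IL-33 at 1 h against 17.5 FPKM in the control.

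Around the locus, 16 further genes had their midpoints within 500 kb of the span. Of these, 7 to 9 passed the filter, depending on the comparison, and none was called with either cytokine at either time. Across these comparisons, the share of all genes called higher ranged from 0.47% to 4.15%, and that called lower from 0.351% to 1.38%. So few neighbours cannot show whether the region differs from these shares. Csf2, a cytokine gene 522 kb beyond Il5, lies outside the window and was called for IL-33 at 4 h (log2 change 2.10). Il3, next to Csf2, was listed at 0 throughout. Irf1, an interferon-regulated transcription factor gene, stood at 54.1 FPKM with IL-33 against 34.1 FPKM in the control at 1 h (log2 change 0.65), and at 45.8 against 53.0 FPKM at 4 h (log2 change -0.21). Hspa4 and Aff4 on the side of Kif3a stood at 36.7 and 27.1 FPKM with IL-33 at 1 h, against 34.2 and 21.3 FPKM in the control. Uqcrq, a subunit of respiratory complex III, was the most abundant neighbour, at 179 FPKM with IL-33 at 1 h against 176 FPKM in the control. With IL-33, the neighbours that passed the filter ranged in log2 change from -0.75 to 0.65 at 1 h and from -0.47 to 0.34 at 4 h.

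**Figure D3:**
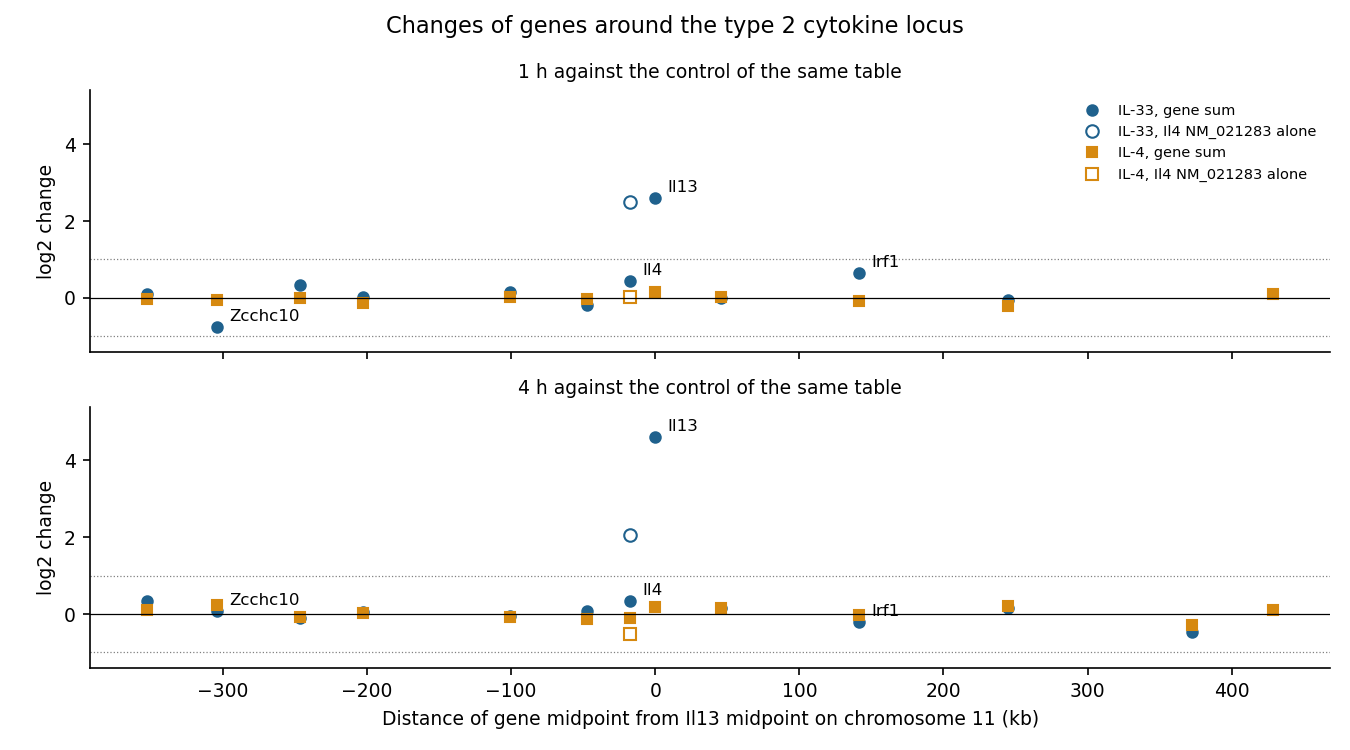
Log2 change of each gene that passed the filter within 500 kb of the locus, by the distance of its midpoint from that of Il13 (kb), at 1 h (top) and 4 h (bottom); circles are IL-33, squares IL-4, open symbols the Il4 transcript NM_021283 alone, and dotted lines the rule of size. Il13 (2.60 and 4.60) and, on its own, NM_021283 (2.50 and 2.07) stand above the upper line with IL-33, and all other points lie between the lines.

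The genes whose 4 log2 changes were nearest to those of Il13, by Euclidean distance among 9339 genes that passed the filter in every comparison, were Cxcl3 (0.35), Clec4e (0.66), Ccl3 (0.69), Il1b (0.71), Peg10 (1.12), Bcl3 (1.14), Adora2a (1.23) and Pim2 (1.28). Cxcl3 and Ccl3 are chemokine genes, and Cxcl3 had log2 changes of 2.64 and 4.78 with IL-33 at 1 h and 4 h. For NM_021283, the nearest of 10950 transcripts belonged to Il10ra (0.55), Gadd45b (0.56), Nfkb2 (0.61 and 0.79, 2 transcripts), Nr4a1 (0.61), Vcam1 (0.62), Sod2 (0.73) and Slc2a6 (0.73). The comparison for this transcript was added after its values were seen. Each distance rests on 4 changes, of which those of 1 time share a control library.

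Of 47 regulators of type 2 cytokine genes, 42 passed the filter with IL-33 at each time. The list was chosen with earlier results of these data known, so its counts with either cytokine cannot be read as enrichment. At 1 h, 5 of the 42 were higher and none lower, beside 2.36% higher and 0.669% lower over all genes. They were Nr4a1 (143 FPKM with IL-33 against 30.5 FPKM in the control), the AP-1 gene Junb (252 against 61.9), the NF-kB gene Rel (44.6 against 12.2), Egr1 (83.2 against 32.0) and Egr2 (31.3 against 12.4). At 4 h, 7 of the 42 were higher and 1 lower, beside 4.15% and 1.38% over all genes. The higher genes included Egr2 (25.1 FPKM with IL-33 against 2.84 FPKM in the control), Batf3 (36.4 against 7.66), Batf (94.2 against 23.2) and Cebpb (314 against 87.9), with Nr4a1, Nfkb1 and Egr1. Satb1, a chromatin organiser that loops this locus in T helper cells, fell, at 6.71 FPKM against 18.3 FPKM in the control (log2 change -1.32).

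Gata1 and Gata2 were far more abundant than Gata3 in these bulk samples. Gata2 is also among the mast cell and basophil markers given below, and which cells carried it was not tested. Gata2 stood at 52.9 FPKM with IL-33 against 50.5 FPKM in the control at 1 h, and at 50.4 against 51.1 FPKM at 4 h. Gata1 was lower with IL-33 at 1 h, at 54.8 against 72.5 FPKM (log2 change -0.40), and higher at 4 h, at 132 against 79.7 FPKM (log2 change 0.72), neither past the rule. Gata3, the factor of T helper type 2 cells, was between 0.06 and 0.15 FPKM in all libraries. Stat6 kept to 112 to 130.0 FPKM.

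With IL-4, none of 42 regulators was called at 1 h and 3 of 44 were higher at 4 h, beside 0.47% and 0.646% of all genes higher at these times. These were Egr2 (10.5 FPKM with IL-4 against 3.00 FPKM in the control), Batf3 (18.6 against 8.09) and Irf4 (1.63 against 0.301). The median log2 change of the list was 0.07 with IL-33 at 1 h and 0.23 at 4 h, beside -0.01 and -0.03 over all genes, and -0.03 and 0.06 with IL-4, beside -0.02 and 0.02.

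**Figure D4:**
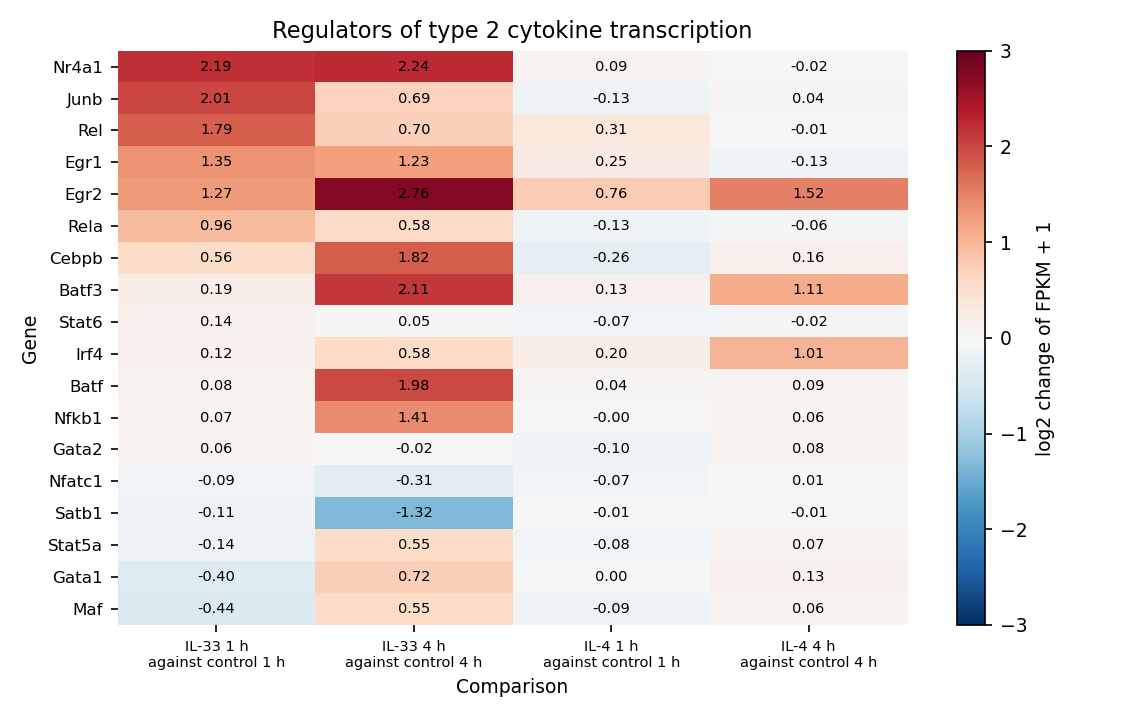
Log2 change of FPKM + 1 (colour and figure in each cell) in the 4 comparisons for the regulators called in any of them, and for 7 further factors shown for reference, ordered by the change with IL-33 at 1 h. Junb and Rel were called with IL-33 at 1 h, Batf, Batf3, Cebpb and Nfkb1 at 4 h, and Stat6 and Gata2 were near 0 throughout.

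Of 9 receptor chains of IL-4, IL-13, IL-5 and IL-33, 8 passed the filter at 1 h and 7 at 4 h. Only Il2rg, the chain shared by the IL-4 receptor and other cytokine receptors, was called, with IL-33 at 4 h. It stood at 182 FPKM against 38.8 FPKM in the control (log2 change 2.20), beside 4.15% of all genes higher there. Il4ra stood at 12.9 against 8.35 FPKM, and Il13ra1 at 0.731 against 0.646 FPKM, in the same comparison. Il13ra2, a decoy receptor for IL-13, was listed at 0 in 4 libraries and reached 0.0725 FPKM with IL-33 at 4 h.

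Of 24 genes known to respond to IL-4 or IL-13, 4 of the 20 that passed the filter rose with IL-33 at 1 h, as did 11 of 20 at 4 h, with none lower, beside 2.36% and 4.15% of all genes higher. With IL-4, 4 of 19 were higher at 1 h and 10 of 21 at 4 h, again with none lower, beside 0.47% and 0.646% of all genes higher. The median log2 change of the list was 0.15 at 1 h and 1.18 at 4 h for IL-33, and 0.17 at 1 h and 0.95 at 4 h for IL-4; over all genes the medians lay between -0.03 and 0.02. Arg1, the arginase of alternatively activated macrophages, stood at 9.43 FPKM with IL-33 at 4 h against 1.24 FPKM in the control. With IL-4 at 4 h its level was 10.8 FPKM against 1.31 FPKM. Retnla, which encodes RELM-alpha, was called with IL-4 at 4 h, at 43.1 FPKM against 8.64 FPKM in the control, and stood at 13.4 against 8.18 FPKM with IL-33 (log2 change 0.65). Socs1, the feedback inhibitor, was called with IL-4 at 1 h (18.4 against 2.80 FPKM) and stood at 4.54 against 2.65 FPKM with IL-33 at that time. The 2 cytokines share the control library of each time. This list too was chosen with earlier results of these data known, so its excess over all genes cannot be read as enrichment.

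Markers of other cells that can make these cytokines, some of which eosinophils share, were measured as well. Of 15 mast cell and basophil markers, 9 reached 1 FPKM in each library, and the mast cell protease gene Mcpt1 was listed at 0 in all. Their summed level was 506 FPKM with IL-33 at 1 h against 438 FPKM in the control, and 459 against 436 FPKM at 4 h. None of the 15 was called, beside 2.36% and 4.15% of all genes higher at these times. The higher sums came from the histamine-forming Hdc, at 234 against 159 FPKM at 1 h and 181 against 96.8 FPKM at 4 h. Without Hdc the sum was 272 FPKM with IL-33 at 1 h against 279 FPKM in the control, and 278 against 339 FPKM at 4 h. The median log2 change of the list was 0.04 with IL-33 at 1 h and -0.32 at 4 h. Members below their control at 4 h included the basophil protease genes Mcpt8 (55.4 against 87.0 FPKM) and Prss34 (37.6 against 50.8 FPKM) and the IgE receptor gene Fcer1a (9.79 against 16.0 FPKM). Others did not follow them. Cpa3 (92.2 against 92.7 FPKM) and Gata2 (50.4 against 51.1 FPKM) were close to their control there, and Kit lay above it (10.3 against 9.11 FPKM).

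The 18 lymphoid and innate lymphoid markers summed to 38.1 to 43.4 FPKM in each library. Of these, 1 was called, Klrb1c, at 7.07 FPKM with IL-33 at 4 h against 1.85 FPKM in the control. There 8 of the 18 passed the filter, 4.15% of all genes were higher, and the list median was 0.09. The CD3 chain genes of T cells differed among themselves. Cd3e was at most 0.16 FPKM in any library, whereas Cd3d stood at 5.32 FPKM with IL-33 at 4 h against 9.75 FPKM in the control and Cd3g at 5.39 against 10.6 FPKM, log2 changes of -0.77 and -0.86.

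Of 12 monocyte and macrophage markers, Csf1r, Cd14 and Mrc1 were called higher with IL-33 at 4 h and Cd14 at 1 h, beside 4.15% and 2.36% of all genes. Mrc1 was also called with IL-4 at 4 h, at 15.1 FPKM against 5.12 FPKM in the control (log2 change 1.39), beside 0.646% of all genes higher. The 12 markers summed to 2484 FPKM with IL-33 at 1 h against 2372 FPKM in the control, and to 2234 against 1536 FPKM at 4 h. Members above their control at 4 h without being called included Emr1 (523 against 276 FPKM) and Ly6c2 (1057 against 860 FPKM). Others lay below their control at 4 h, among them Ccr2 (6.74 against 12.0 FPKM), Cx3cr1 (log2 change -0.50), Lyz1 (86.5 against 112 FPKM), C1qa (14.7 against 18.8 FPKM) and C1qb (21.3 against 23.3 FPKM), and the list median was 0.11. None of 11 neutrophil markers was called. Their sum was 7103 FPKM with IL-33 at 1 h against 6622 FPKM in the control, and 5884 against 7731 FPKM at 4 h. The median log2 change of that list was 0.09 with IL-33 at 1 h and -0.37 at 4 h. The part of these cells in the Il4 and Il13 results was not tested.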

How the data were processed

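RNA of 6 libraries was analysed from 4 deposited tables of FPKM per RefSeq transcript and 1 list of regulated genes with the authors' log2 fold changes. TopHat 1.4.1, Cuffdiff 1.2.1 and build mm9 are named in the submitters' processing notes; the sources used here do not give the RefSeq release. From the authors' deposited tables, each p-value and q-value served only through the mark of significance it gave. The FPKM of the same control library were 0.945 (1 h) and 0.947 (4 h) times as large in the IL-33 table as in the IL-4 table, so changes were taken within a table.

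FPKM were summed over a symbol's transcripts (232 symbols mapped to more than 1 place, of which the most abundant was kept), with Python 3.11.15, pandas 2.3.3 and numpy 2.4.6. The pseudocount was 1, the filter FPKM of at least 1 in either library, the rule of size a log2 change of 1. The steps were checked on simulated data. The value of 1 read came from genes with 1 transcript of over 1000 bases, with 250 bases taken off the length, chosen for the sharpest steps; 76.7% to 79.2% of low values then lay within 0.2 of a whole read.

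The rule for named genes took the 5 members, neighbours within 500 kb that were called or reached 10 FPKM, called members of each list (up to 5, otherwise those of largest change) with abundant ones, and the 8 nearest genes. The members and lists were chosen with earlier results of these data known. Alternatives were another pseudocount, no filter, the control of the other time, centring on the median ratio, the highest transcript and, added after seeing the data, single transcripts.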

Additional observations from a re-analysis of the deposited data

How the results depend on the processing

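Under every alternative tried, Il13 was called with IL-33 at both times, with a log2 change of 2.60 to 3.21 at 1 h and 3.99 to 5.45 at 4 h, and with IL-4 at neither. The Il4 sum was called in none. The number of called locus genes with IL-33 was 1 at each time and became 2 at 1 h and 2 at 4 h when each transcript was taken on its own, an alternative chosen after seeing the data, because Il4 NM_021283 then counted. Its log2 change with IL-33 ranged from 2.50 to 3.00 at 1 h and from 1.57 to 2.37 at 4 h. With IL-4 at 4 h it was -0.51, and -1.02 with the control of the other time, where it would be called lower. The count of all called genes, 322 with IL-33 at 1 h, 88 with IL-4 at 1 h and 108 with IL-4 at 4 h, became 778, 295 and 280 against the control of the other time, and 183 with IL-4 at 4 h with a pseudocount of 0.1. Centring shifted the changes by -0.02 to 0.02 (log2). No paired analysis was possible because each group has 1 library. The control of 4 h was the shallowest library and limits the folds at 4 h.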

Other observations

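Il3 and Csf2 form a second cytokine pair on the same chromosome, 522 kb beyond Il5. Csf2, which encodes GM-CSF, a survival factor of eosinophils, stood at 0.747 FPKM with IL-33 at 1 h against 0.0540 FPKM in the control. At 4 h it stood at 3.30 FPKM with IL-33 and was listed at 0 in the control, and it was called higher there (log2 change 2.10). Il3 was listed at 0 in all 6 libraries, as were Il9, Il31 and Il25. Il6 was the other called gene among 12 further type 2 and related cytokine genes, a list not drawn by position. Of these, 3 passed the filter with IL-33 at 1 h and 4 at 4 h, beside 2.36% and 4.15% of all genes higher. Il6 was the only one called with IL-33 at 1 h, at 217 FPKM against 7.31 FPKM in the control, and at 4 h it stood at 336 against 4.75 FPKM. Of the cytokine genes of the locus and the Il3-Csf2 pair, Il13 and Csf2 were thus called higher with IL-33 at 4 h. As gene sums, Il4, Il5 and Il3 were not.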
